A study of Mus musculus with 3 samples.

Results

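Hoxa9, Hoxa10, Hoxa11 and Hoxa13 are the 4 posterior genes of the HoxA cluster, and their chromatin accessibility was followed in mesenchymal progenitors (MPs) of the mouse forelimb. They were read over a window of 80 kb, chr6:52190000-52270000 of the mm10 genome build, by taking every called peak in the window and summing it over the same stretches of chromatin at each stage. The stages were embryonic day (E) 12.5, E14.5 and then E16.5, and 3 values given together follow that order. The window held 14, 20 and 17 peaks, out of 190443, 102459 and 213613 peaks in all. These peaks fell into 14 merged intervals of the 266531 in the series, and 12 of them had a peak at every stage. The 4 genes are 4 of the 21951 genes with values in the series.

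The measurement was single-nucleus ATAC-seq, in which a transposase cuts open chromatin and the cuts are counted per peak and nucleus. There was 1 library for each stage, with 8294, 20023 and 14048 nuclei. Every library was made from C57BL/6J embryos of the genotype Hic1CreERT2/CreERT2;Rosa26LSLtdTomato/tdTomato, whose dams received 7.5 mg tamoxifen in 300 uL sunflower oil by gavage at E10. The nuclei therefore descended from cells that expressed Hic1 soon after E10, every group carried 2 copies of the CreERT2 allele at Hic1, and no group without that allele was analysed here. Cells positive for tdTomato were sorted after removal of CD45, CD117, CD31, CD11b, F4/80 and Ter119 positive cells, and embryos of both sexes had been pooled. Forelimbs had been used for the first 2 stages, but for E16.5 only the segment with the distal stylopod, the elbow joint and the proximal zeugopod, so the hand plate (autopod) was not part of that library. The E12.5 limbs were digested with Dispase, with 2 to 3 pairs in each reaction, and the later ones with Collagenase A, Pronase and DNase. Stage and library cannot be told apart in any comparison. Digestion differed only between E12.5 and the later stages, and the limb segment only between E16.5 and the earlier ones, and there these cannot be told apart from stage either. No value below has a replicate or a test.

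Hox genes encode homeodomain transcription factors that give cells their position along the body and the limb. In the limb, the posterior genes of the HoxA and HoxD clusters are switched on in an order that follows their place on the chromosome. Hoxa9 and Hoxa10 act mainly in the upper limb segment (stylopod), Hoxa11 in the forearm segment (zeugopod) and Hoxa13 in the autopod, where it works together with Hoxd13 on digit formation. Hottip, a long non-coding RNA, starts next to Hoxa13 on the opposite strand, Hoxa11os is the antisense transcript of Hoxa11, and Mir196b encodes a microRNA of the miR-196 family, which is known to target Hox transcripts.

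The start sites of the 4 genes differed in base composition, and all of them lay in open chromatin at every stage. The 250 bases upstream of each start in RefSeq (GRCm38.p6) are printed here because the accessibility values below were summed over intervals that hold them. Each of the 5 windows lay wholly within 1 peak in all 3 libraries. Capitals mark matches, on either strand, to TATAAA (the TATA box), CCAAT (the CCAAT box), GGGCGG (the GC box) and CAATAAA (a word bound by HOX13 proteins). The words CCAAT and CAATAAA can overlap each other, and in the Hoxa13 window a CCAAT and a GGGCGG abut.
Hoxa13, chr6:52260881-52261130, minus strand: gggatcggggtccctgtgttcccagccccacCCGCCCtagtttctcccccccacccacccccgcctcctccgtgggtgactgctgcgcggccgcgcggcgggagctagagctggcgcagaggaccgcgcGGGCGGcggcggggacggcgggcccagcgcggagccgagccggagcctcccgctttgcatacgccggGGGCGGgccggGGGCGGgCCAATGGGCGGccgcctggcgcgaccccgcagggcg
Hoxa11, chr6:52245811-52246060, minus strand: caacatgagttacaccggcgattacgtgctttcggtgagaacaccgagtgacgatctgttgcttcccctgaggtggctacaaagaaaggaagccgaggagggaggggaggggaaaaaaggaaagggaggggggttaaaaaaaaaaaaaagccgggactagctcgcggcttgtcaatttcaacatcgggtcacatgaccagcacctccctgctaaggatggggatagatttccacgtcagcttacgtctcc
Hoxa10, outer start, chr6:52240855-52241104, minus strand: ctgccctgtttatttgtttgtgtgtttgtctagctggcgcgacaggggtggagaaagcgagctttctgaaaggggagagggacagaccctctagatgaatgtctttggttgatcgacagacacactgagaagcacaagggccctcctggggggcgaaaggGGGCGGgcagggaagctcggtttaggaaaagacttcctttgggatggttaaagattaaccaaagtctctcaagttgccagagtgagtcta
Hoxa10, inner start, chr6:52234940-52235189, minus strand: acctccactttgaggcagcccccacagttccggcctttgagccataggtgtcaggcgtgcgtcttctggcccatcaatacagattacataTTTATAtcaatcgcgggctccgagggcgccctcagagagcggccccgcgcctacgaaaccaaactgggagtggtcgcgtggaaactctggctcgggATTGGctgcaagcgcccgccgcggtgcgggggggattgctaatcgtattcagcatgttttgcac
Hoxa9, chr6:52227371-52227620, minus strand: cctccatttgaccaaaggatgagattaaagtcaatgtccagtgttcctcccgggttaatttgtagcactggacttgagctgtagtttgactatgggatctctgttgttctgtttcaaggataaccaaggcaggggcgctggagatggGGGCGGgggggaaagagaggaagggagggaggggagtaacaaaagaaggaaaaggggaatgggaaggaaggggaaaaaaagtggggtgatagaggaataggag
The Hoxa13 window was 80% G or C with 35 CG dinucleotides, against a median of 52.4% and 6 over the 32851 RefSeq promoters of the same length, and 98.9% of those had no more G and C than it. It held 5 GGGCGG words and 1 CCAAT. The windows of the other starts held between 49.6% and 59.2% G or C. The inner start of Hoxa10 had 20 CG dinucleotides, 1 TATAAA and 1 CCAAT, the outer start had 7 and 1 GGGCGG, Hoxa9 had 3 and 1 GGGCGG, and Hoxa11 had 13 and none of these words. Across all promoters TATAAA was present in 12.4%, CCAAT in 33.8%, GGGCGG in 32.7% and CAATAAA in 4.20%, and CAATAAA was in none of the 5 windows. A match is a description of letters and not a measured binding site. The microRNA of Mir196b, which lies within the annotated Hoxa9 gene, carries its seed, bases 2 to 8, in capitals:
mmu-miR-196b-5p, chr6:52230129-52230150, minus strand: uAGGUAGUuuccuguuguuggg
At E14.5, where the peaks were narrowest, its gene lay in the same peak as the Hoxa9 start.

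Hoxa9, Hoxa10 and Hoxa11 shared 1 open interval of 30247 bp, chr6:52219792-52250038, while Hoxa13 had its own of 5992 bp, chr6:52258351-52264342. The first held the start sites of Hoxa9, Hoxa10, Hoxa11, Hoxa11os and Mir196b and the far end of Hoxa7, and the second those of Hoxa13 and Hottip. In the E12.5 library 1 peak of 30157 bp covered the first interval, and it was the widest of the 190443 peaks of that library. The E14.5 library divided the interval into 7 peaks with 24802 bp in all, of which the widest, 7037 bp over Hoxa9 and Mir196b, ranked 27th in width. The E16.5 library had 3 peaks over 29128 bp, and its 18262-bp peak over Hoxa10 and Hoxa11 was the 5th widest. Peaks covered 5339, 3463 and 5992 bp of the Hoxa13 interval. Each library had its own peak calls, so the called width moved with the library, and a gene could not be followed by its own peak. Of the peaks in the window, 2, 7 and 5 met the body or the 2000 bp upstream of one of the 4 genes, and 1, 1 and 2 of these met several of them.

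**Figure D1:**
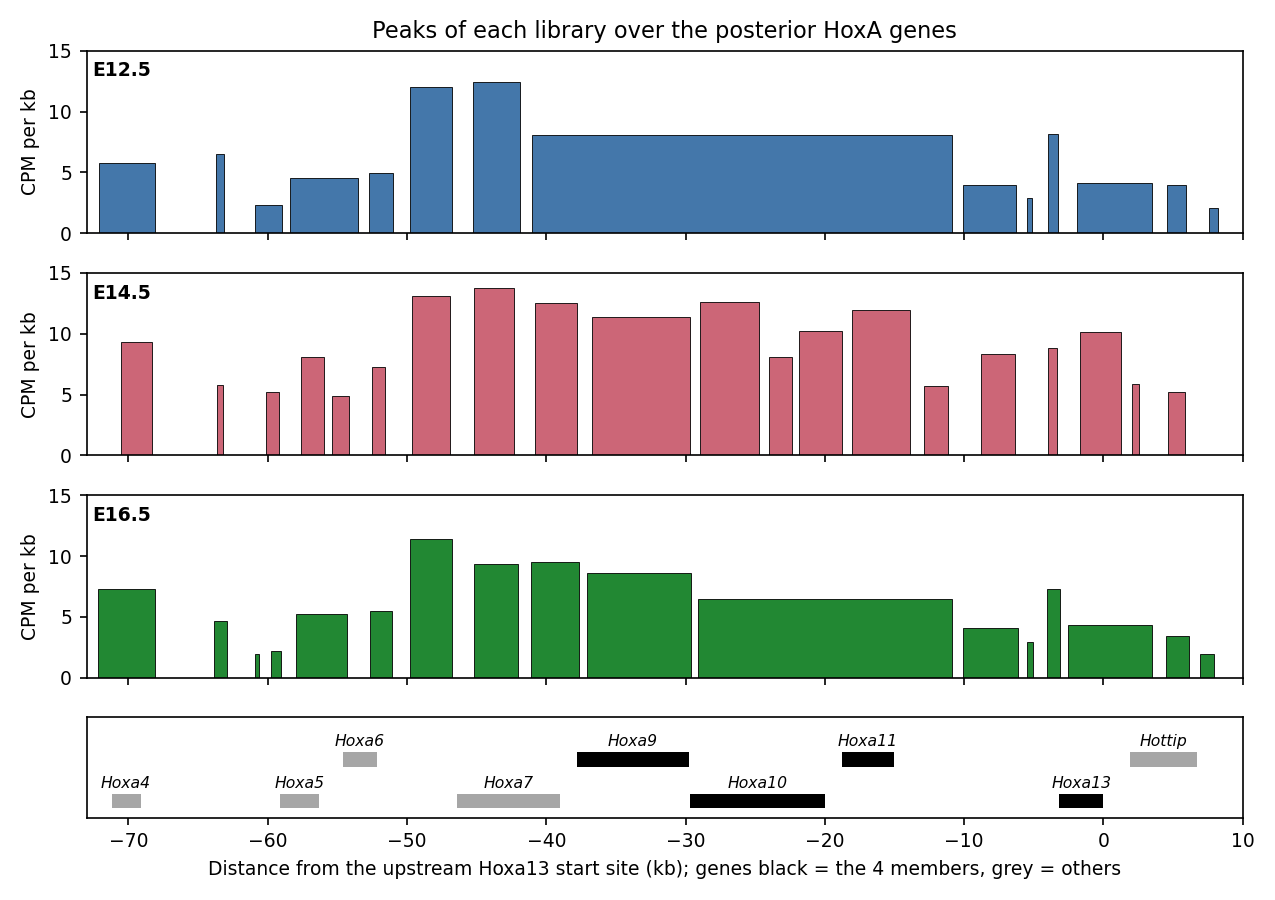
Peaks of each library over the window, with the distance from the upstream Hoxa13 start site in kb on the x axis and the height of each bar the level of that peak in CPM per kb (CPM being cut sites per 1000000). The E12.5 library has 1 peak of 30157 bp over Hoxa9, Hoxa10 and Hoxa11, which 7 peaks cover at E14.5 and 3 at E16.5.

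Accessibility was expressed as CPM, the cut sites per 1000000 of the library's cut sites in autosomal regions that had a peak at every stage. The Hoxa9 to Hoxa11 interval held 243 CPM (95% interval 238 to 249, for counting error only, here and below), then 274 CPM (271 to 278) and 214 CPM (212 to 216). This was 55.9%, 58.4% and 53.7% of all cuts in the window. Its level was thus highest at E14.5, and the 3 intervals did not overlap. A lower sum can come from fewer open nuclei or from fewer cuts in each, which the sums cannot tell apart. The log2 ratio was 0.17 (0.14 to 0.21) from E12.5 to E14.5 and -0.36 (-0.38 to -0.34) from E14.5 to E16.5. Between E12.5 and E16.5, which had nearly the same called width, it was -0.18 (-0.22 to -0.15). It was -0.16 with median-of-ratios scaling, -0.13 per kb and only -0.06 without the deepest 5% of nuclei. With binarised counts alone it turned, to 0.38, but these can rise with the number of peaks called, 1 at E12.5 and 3 at E16.5. Per kb of called peak the levels were 8.07, 11.1 and 7.35 CPM.

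The Hoxa13 interval held far fewer cuts than its neighbour and, as summed cuts, rose more into E14.5. With binarised counts it rose by 0.62 and its neighbour by 1.16 on the log2 scale. The peaks called went from 1 to 2 in the Hoxa13 interval and from 1 to 7 in its neighbour, so these binarised steps cannot be compared. Hoxa13 held 22.0 CPM (20.5 to 23.6), 32.9 CPM (31.8 to 34.0) and 26.1 CPM (25.3 to 26.9). These are 5.05%, 7.01% and 6.55% of the cuts in the window. The log2 ratio was 0.58 (0.47 to 0.69) from E12.5 to E14.5 and -0.33 (-0.40 to -0.27) from E14.5 to E16.5, which left E16.5 above E12.5 by 0.25 (0.14 to 0.36), and by 0.48 without the deepest 5% of nuclei. Per kb of called peak the levels were 4.12, 9.50 and 4.36 CPM, so that the step into E14.5 was 1.21 and the step out of it -1.13 on the log2 scale, and E12.5 and E16.5 differed by 0.08. The E14.5 peaks of this interval were the narrowest, which raises a level per kb.

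**Figure D2:**
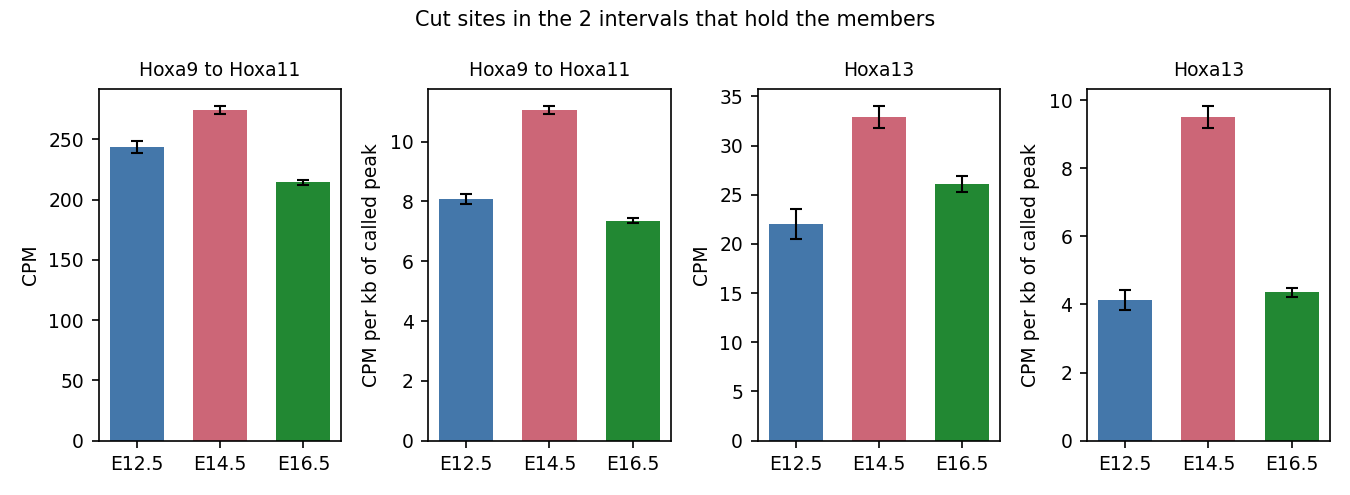
Level of the Hoxa9 to Hoxa11 interval and of the Hoxa13 interval at each stage, as CPM and as CPM per kb of called peak, with 95% Poisson intervals for counting error and 1 library per bar. Both intervals are highest at E14.5 on both scales, and Hoxa13 moves from 4.12 to 9.50 CPM per kb.

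Set against each other within a library, where no scaling between libraries enters, Hoxa13 had more fragments relative to its neighbour at both later stages than at E12.5. For every 100 fragments in the Hoxa9 to Hoxa11 interval there were 9.13 (8.49 to 9.80), 12.2 (11.8 to 12.7) and 12.3 (11.9 to 12.7) in the Hoxa13 interval. The E12.5 interval lay below those of E14.5 and E16.5, which overlapped each other. As sums, the intervals thus moved by nearly the same ratio between the later stages, but per kb of called peak the level of Hoxa13 was 0.510, 0.859 and 0.592 of that of Hoxa9 to Hoxa11, a fall from E14.5 to E16.5. With binarised counts the steps out of E14.5 were -0.33 for Hoxa13 and -0.77 for Hoxa9 to Hoxa11. E16.5 then stood above E12.5 by 0.28 and 0.38. The peaks called were 1, 2 and 1 for Hoxa13 and 1, 7 and 3 for Hoxa9 to Hoxa11. Since binarised counts can rise with that number, they cannot show how the intervals moved relative to each other.

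None of the 12 intervals shared by all stages rose 2-fold or more from E12.5 to E14.5, where 10.5% of all 82714 shared regions did, and none fell 2-fold or more, where 20.5% did. From E14.5 to E16.5 none rose (19.8% of all regions) and 1 fell (6.91%), and from E12.5 to E16.5 none rose (18.4%) and 1 fell (16.4%). The one that fell in both, chr6:52199937-52201922, lies next to Hoxa5, an anterior gene of the cluster, holds no start site, and moved by -1.23 and -1.17. Its called width was 1986, 935 and 989 bp, and per kb the second of these changes was -0.17. The ratios of the 12 intervals ran from -0.66 to 0.58 in the first step, with Hoxa13 the highest of them, and from -1.23 to 0.77 in the second. Promoter regions as a whole had shifted in the same directions, with medians over 14158 regions of 0.25 into E14.5 and -0.28 out of it. A smaller share of them than of all regions passed 2-fold, 1.11% upwards and 2.92% downwards into E14.5, and 3.06% and 1.39% out of it. From E12.5 to E16.5 these shares were 2.56% and 3.69%. The Hoxa9 to Hoxa11 interval, at 0.17 and -0.36, lay below both promoter medians, and 40.3% and 36.1% of promoter regions were at or below it. Among the 1601 shared regions of 5 kb or more, the medians were 0.11 and -0.03, and the 5th percentile of the second step was -0.46. Against these wide regions the first step of Hoxa9 to Hoxa11 lay above the median and the second below it. Per kb its first step, 0.46, lay below the promoter median of 0.50 and its second, -0.59, above that of -0.67, with 44.1% and 61.3% of promoter regions at or below it. Hoxa13 had 88.9% of promoter regions at or below its rise and 40.1% at or below its fall, and 98.1% and 8.89% when levels were taken per kb.

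Within the shared interval the parts could be separated only at the later stages. At E14.5 the peak over the outer start of Hoxa10 held 10.2 CPM per kb, that over its inner start 12.6, that over Hoxa9 and Mir196b 11.4 and that over Hoxa11 and Hoxa11os 11.9, while the peak upstream of Hoxa11 held 5.70. The peak over the Hoxa13 start held 10.2 CPM per kb, close to those of its neighbours. When the E14.5 and E16.5 peaks were merged without E12.5, the stretch with Hoxa10 and Hoxa11 moved by -0.41 (-0.44 to -0.38) into E16.5 and that with Hoxa9 and Mir196b by -0.32 (-0.37 to -0.28). The stretch nearest to Hoxa7 moved by -0.23 (-0.29 to -0.16). The open spacer between Hoxa11 and Hoxa13, chr6:52250824-52254720, which holds no annotated start site, held 15.02, 20.2 and 15.8 CPM, with ratios of 0.42 and -0.35 beside the 0.58 and -0.33 of Hoxa13. On the other side of Hoxa9, the anterior genes behaved differently among themselves as summed cuts: Hoxa4 had ratios of 0.26 and 0.09, Hoxa5 -0.19 and -0.03, Hoxa6 -0.28 and 0.32, Hoxa3 -0.02 and -0.08, and Hoxa7 -0.11 and -0.42. For Hoxa3 only the interval chr6:52211091-52214107 was read, which lies between Hoxa6 and Hoxa7 and holds its start farthest upstream. Per kb of called peak these anterior genes all moved in the same directions. They rose into E14.5, from 0.13 for Hoxa3 to 0.67 for Hoxa4, and fell out of it, from -0.21 for Hoxa3 to -0.56 for Hoxa7.

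The HoxD cluster, whose posterior genes act beside those of HoxA in the limb, also had a wide shared interval and a separate one for its gene of group 13, but there the gene of group 9 lay apart. Hoxd10, Hoxd11 and Hoxd12 shared 1 interval, chr2:74669815-74695230, with 162, 176 and 147 CPM and log2 ratios of 0.12 (0.08 to 0.16) and -0.25 (-0.28 to -0.23). Hoxd13, the autopod gene of that cluster, had an interval of its own, chr2:74666347-74669170, with 20.1, 33.9 and 20.7 CPM. Its ratios were 0.75 (0.64 to 0.87) into E14.5 and -0.71 (-0.78 to -0.64) out of it, with 96.6% and 5.16% of promoter regions at or below them. Per 100 fragments of the Hoxd10 to Hoxd12 interval, Hoxd13 had 12.5 (11.6 to 13.5), 19.2 (18.5 to 19.9) and 14.2 (13.7 to 14.7). Per kb of called peak Hoxd13 was at 1.03, 1.55 and 1.21 times the level of Hoxd10 to Hoxd12. Both genes of group 13 were thus most open at E14.5. Between E14.5 and E16.5 the fragment ratio to the neighbours fell for Hoxd13 but not for Hoxa13. Per kb it fell for both, by a larger proportion for Hoxa13 but by a larger difference for Hoxd13. Hoxd9, in a region of its own, chr2:74695342-74702883, had ratios of -0.39 and -0.17 and Evx2, the gene beyond Hoxd13, 0.45 and -0.18. Per kb these were 0.62 and -0.76 for Hoxd9 and 0.53 and -0.66 for Evx2. The first direction of Hoxd9 thus turned with the scale, and its called width was 7542, 3731 and 5596 bp. The E16.5 segment did not include the autopod, and stage and segment cannot be told apart here.

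**Figure D3:**
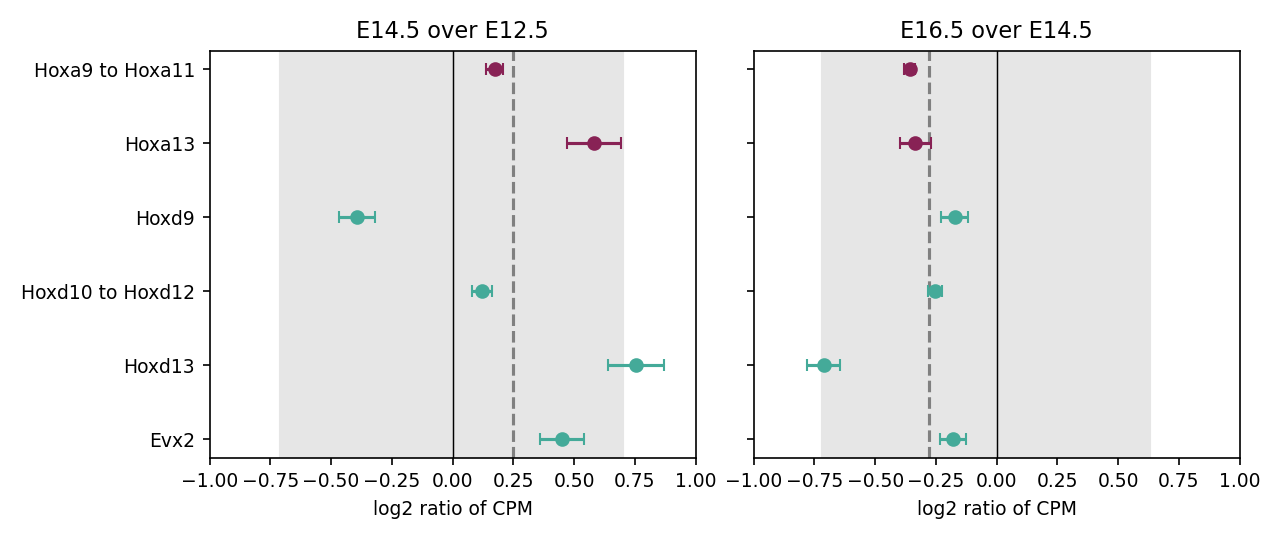
Log2 ratio of CPM between stages for the HoxA intervals (purple) and HoxD regions (green), with 95% intervals for counting error; the dashed line is the median of 14158 promoter regions and the grey band their 5th to 95th percentile. Hoxa13 and Hoxd13 lie at 0.58 and 0.75 in the first step, and only Hoxd13 lies near the lower edge of the band in the second, at -0.71.

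Promoter regions of 27 genes that pattern the limb along its proximal to distal or anterior to posterior axis were read in the same way. From E12.5 to E14.5, 21 were higher and 6 lower, with a median of 0.16, where 76.2% of all promoter regions were higher with a median of 0.25. From E14.5 to E16.5, 3 were higher and 24 lower, with a median of -0.22, where 81.7% of all promoter regions were lower with a median of -0.28. The list thus lay near the promoter background. None reached 2-fold in either step, as 1.11% of promoter regions did upwards in the first and 1.39% downwards in the second. Per kb all 27 were higher in the first step (93.6% of all promoter regions), and 26 were lower in the second (97.9%). The medians per kb were 0.58 and -0.75 (0.50 and -0.67 over all promoter regions), with 1 gene past 2-fold upwards in the first step (6.14%) and 4 downwards in the second (15.7%). Hoxd10, Hoxd11 and Hoxd12 count as 3 of the 27 and have 1 shared value. As summed cuts, Hoxd13 had the highest first ratio of the 27 and the lowest second ratio, -0.71, beside -0.70 for Grem1. Per kb its first ratio, 1.16, was still the highest. Its second, -1.15, was then above those of Sall3 (-1.44), Grem1 (-1.26) and Rarb (-1.16). The lowest first ratio of summed cuts was that of Hoxd9, and the highest second ratio, 0.06, was that of Meis2, a cofactor gene of the proximal limb, whose partner Meis1 had 0.05. Per kb the lowest first ratio was that of Grem1 (0.12), and Hoxd9 had 0.62. The second ratios of Meis2 and Meis1 were then 0.01 and -0.25. Per kb the first ratio of Hoxa13, 1.21, was exceeded by none of the 27. As summed cuts, only Hoxd13 exceeded the first ratio of Hoxa13. Rarb, a retinoic acid receptor gene, came next with 0.57.

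The members were then read nucleus by nucleus. In single nuclei the counts were sparse, so each nucleus was thinned to 1074 fragments in shared regions, which left out 2071 nuclei at E12.5, none at E14.5 and 252 at E16.5. At this depth 18.4% (17.4 to 19.4), 23.7% (23.1 to 24.3) and 19.7% (19.0 to 20.3) of nuclei had a fragment in the Hoxa9 to Hoxa11 interval. For Hoxa13 the shares were 1.80% (1.48 to 2.16), 3.22% (2.98 to 3.48) and 2.54% (2.28 to 2.81). Both were highest at E14.5, and the E16.5 share of Hoxa13 lay between those of the other stages, with intervals that did not overlap. With all fragments the shares of Hoxa9 to Hoxa11 were 39.5%, 60.7% and 75.2% and those of Hoxa13 7.52%, 14.01% and 23.8%. Nuclei with 4 or more Hoxa9 to Hoxa11 fragments made up 8.67%, 10.6% and 28.1%, and the highest number in 1 nucleus was 37, 16 and 22. The shares with all fragments rose with the depth of the libraries, which had medians of 2542, 4294 and 10842 fragments per nucleus in shared regions, and a nucleus without a fragment cannot be read as closed. A nucleus with 2 or more Hoxa13 fragments was rare at fixed depth, at 0.0803%, 0.0699% and 0.0290%.

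**Figure D4:**
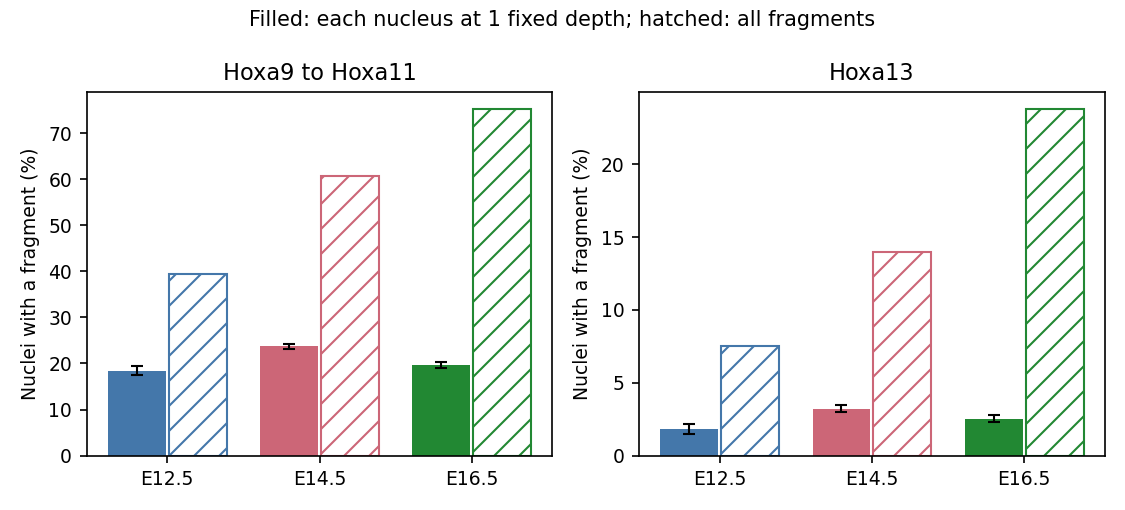
Share of nuclei with at least 1 fragment in each interval, with every nucleus thinned to 1074 fragments (filled, with 95% binomial intervals) and with all fragments (hatched). At fixed depth both intervals peak at E14.5, at 23.7% and 3.22%, whereas the hatched bars climb with depth to 75.2% and 23.8%.

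At E14.5 nuclei with a Hoxa13 fragment also had a Hoxa9 to Hoxa11 fragment more often than nuclei without one. With every nucleus at 1074 fragments the share was 30.1% (26.6 to 33.8) of 645 nuclei against 23.5% (22.9 to 24.1) of 19378. At E16.5 it was 24.3% (19.9 to 29.1) of 350 nuclei against 19.5% (18.9 to 20.2), with overlapping intervals, and at E12.5 19.6% (12.7 to 28.2) of 112 nuclei against 18.3% (17.4 to 19.3). Thinning each library to its own 25th percentile instead, 1074, 2410 and 5656 fragments, gave more nuclei with a Hoxa13 fragment. The E14.5 shares were then 52.7% (49.8 to 55.6) of 1167 nuclei and 44.1% (43.3 to 44.9) of 13853, and the E16.5 shares 69.0% (66.5 to 71.3) of 1456 nuclei and 67.4% (66.5 to 68.4) of 9081. At both depths the E14.5 intervals were apart and the E16.5 intervals overlapped. The spacer between Hoxa11 and Hoxa13 was open in 7.03% (5.63 to 8.65) of the E14.5 nuclei with a Hoxa13 fragment and 4.48% (4.14 to 4.84) of those without at the library's own depth, and in 3.10% (1.90 to 4.75) and 1.84% (1.66 to 2.04) at 1074 fragments, where the intervals overlapped. At 1074 fragments the shares were 4.46% (1.47 to 10.1) and 1.15% (0.894 to 1.45) at E12.5, from 5 nuclei with both, and 3.43% (1.78 to 5.91) and 1.53% (1.33 to 1.75) at E16.5. These intervals were apart at both stages, but at the E16.5 library's own depth, with 9.34% (7.89 to 10.95) and 8.17% (7.62 to 8.75), they overlapped. Promoters near the window were also higher in nuclei with a fragment in it, most of all at E12.5. At E12.5 all 20 promoter regions within 2 Mb of the window were higher in nuclei with a Hoxa9 to Hoxa11 fragment, with a median log2 ratio of 0.40, against 0.07 elsewhere on chromosome 6 while of 12517 regions on other chromosomes 6254 were higher and 6263 lower. For the Hoxd10 to Hoxd12 interval all 32 regions within 2 Mb were higher at E12.5, with a median of 0.43, so this was not particular to HoxA. In E14.5 nuclei split by Hoxa13 at the library's own depth the median within 2 Mb was 0.15. All 21 regions within 2 Mb were higher at E14.5 for Hoxa9 to Hoxa11 at 1074 fragments, with a median of 0.12. At E16.5 this was hardly seen at 1074 fragments, where 12 regions within 2 Mb were higher and 8 lower for Hoxa9 to Hoxa11. For Hoxa13 11 were higher and 7 lower, with a median of 0.05 both there and on other chromosomes. At the E16.5 library's own depth 13 were higher and 7 lower for Hoxa9 to Hoxa11. For Hoxa13 15 were then higher and 5 lower, with a median of 0.06 against 0.02 on other chromosomes. What part neighbouring chromatin had in the shares above was not tested.

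The HoxD cluster lies on another chromosome, and Hoxd13 was more open in E14.5 nuclei with a Hoxa13 fragment. Split at 1074 fragments and counted over all fragments of these nuclei, the Hoxd13 promoter region held 45.2 fragments per 1000000 against 32.4 in nuclei without, a log2 ratio of 0.48 (0.24 to 0.71), and 99.8% of 11683 promoter regions were at or below it. At E16.5 the ratio was 0.35 (0.08 to 0.62), and at E12.5 it was -0.20 (-1.04 to 0.53) from 15 fragments. Split at each library's own depth, Hoxd13 had 43.3 against 32.6 at E14.5, a ratio of 0.41 (0.24 to 0.58), but 20.5 against 20.9 at E16.5, a ratio of -0.02 (-0.17 to 0.12). The E14.5 value was thus close at both depths, while the E16.5 value was near 0 at the greater depth.

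The other genes of the HoxD end were below Hoxd13 at E14.5 and above it at E16.5 at each library's own depth. At E14.5 Evx2 had 0.30 (0.15 to 0.44), Hoxd9 0.31 (0.16 to 0.46) and the Hoxd10 to Hoxd12 interval 0.17 (0.09 to 0.25), and at E16.5 they had 0.18 (0.08 to 0.27), 0.06 (-0.04 to 0.17) and 0.15 (0.09 to 0.20). At 1074 fragments the E14.5 ratios of these were 0.09, 0.05 and 0.04, each with an interval that included 0, and at E16.5 they were 0.10 (-0.11 to 0.30), 0.25 (0.05 to 0.45) and 0.15 (0.05 to 0.26), all below Hoxd13, so the E16.5 order turned with the depth of the split. Meis1 and Meis2, genes of the proximal limb, had -0.14 (-0.28 to 0.01) and 0.02 (-0.11 to 0.16) at E14.5, and 0.02 and -0.05 at 1074 fragments, so that both turned sign. At E12.5 Meis1 had 0.28 (-0.13 to 0.66) and Meis2 -0.77 (-1.38 to -0.23), the latter from 27 fragments in the nuclei with a Hoxa13 fragment. At E16.5 they had -0.06 (-0.14 to 0.03) and 0.11 (0.03 to 0.18), and at 1074 fragments 0.02 and 0.14 (-0.02 to 0.29). Msx1, a homeobox gene of the distal mesenchyme, was higher at every stage, with 0.56 (0.18 to 0.91), 0.26 (0.11 to 0.41) and 0.15 (0.06 to 0.25), but at 1074 fragments its E14.5 ratio was 0.17 (-0.05 to 0.37). Its relative Msx2 had -0.34 (-1.30 to 0.48), 0.23 (-0.01 to 0.46) and 0.02 (-0.14 to 0.17), each with an interval that included 0. Tbx5, a gene of forelimb identity, had 0.62 (0.37 to 0.85) at E12.5, 0.09 (0.00 to 0.18) at the next stage and 0.02 (-0.04 to 0.08) at E16.5. Of the 27 patterning genes the interval of the ratio lay above 0 for 4 at E12.5 (17.4% of the 1809 promoter regions with 50 fragments in the small set of nuclei, a minimum that favours regions high in that set), for 13 at E14.5 (7.59%) and for 12 at E16.5 (9.31%), and below 0 for 1 (0.995%), none (2.28%) and 1 (2.93%). With the split at 1074 fragments the counts above 0 were 4 (7.78%) and 10 (8.22%) for the later stages, and none lay below 0 (1.54% and 1.62%). Hoxd10, Hoxd11 and Hoxd12 share 1 value but are each counted in the 13, the 12 and the 10, while the percentages count each region once. An interval narrows with the number of fragments, and the percentages, here and for the lists below, were not matched to the listed genes for that number. Split by the Hoxa9 to Hoxa11 interval at 1074 fragments, Hoxd13 had 0.36 (0.12 to 0.60), 0.18 (0.07 to 0.29) and 0.09 (-0.03 to 0.20), with 98.8%, 98.1% and 91.5% of promoter regions at or below it. At each library's own depth the later ratios were 0.24 (0.14 to 0.34) and 0.15 (0.04 to 0.26), so whether the E16.5 interval included 0 depended on the depth. Nuclei with a Hoxa13 fragment also had a larger part of their fragments in promoter regions, 54.3% against 53.1% at E14.5 and 45.6% against 44.8% at E16.5 at the library's own depth, and the median ratio over promoter regions was 0.03 and 0.02. All fragments of the split nuclei were counted, so depth was not equal in these ratios. Nuclei with a Hoxa13 fragment had more fragments each than those without, at every stage and at both depths of the split. The part of promoter share and of depth in the values above was not tested.

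**Figure D5:**
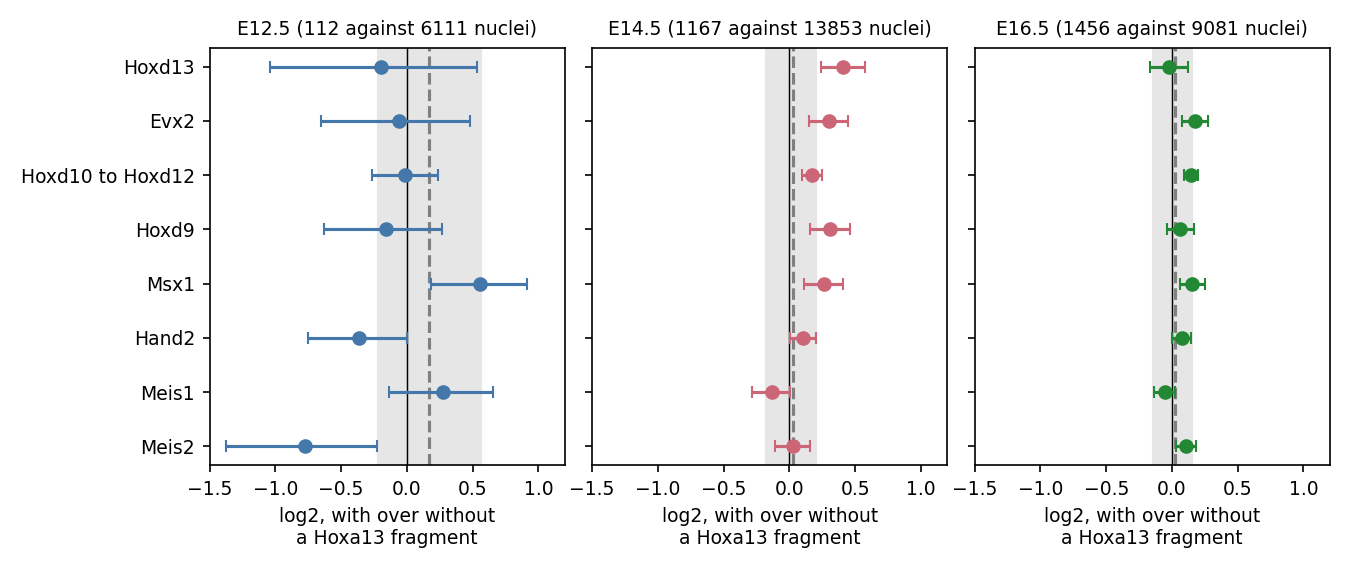
Log2 ratio of fragments per 1000000 between nuclei with and without a Hoxa13 fragment, for promoter regions of 8 patterning intervals and each library at its own depth, with 95% intervals for counting error; the dashed line and the grey band are the median and the 5th to 95th percentile over promoter regions with 50 fragments in each set, only 1809 of them at E12.5. At E14.5 Hoxd13 stands above the band, at 0.41, as do Hoxd9 (0.31), Evx2 (0.30) and Msx1 (0.26). At E16.5 Hoxd13 lies near 0, at -0.02.

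Promoters most like the Hoxa9 to Hoxa11 interval were sought by the least extreme of the 3 stage ratios between nuclei with and without a fragment in it, among 13186 regions with at least 50 fragments in each set, at each library's own depth. They were Chn2 (0.30), Gm18596 (0.27), Cpxm2 (0.19), Btbd17 (0.19) and Lmo3 (0.18), of which Chn2 and Lmo3 lie on chromosome 6, and at the other end Cldn4 (-0.33), Avpr1b (-0.29), Sbno2 (-0.29), S100a3 (-0.28) and Prnd (-0.24). Split at 1074 fragments the highest were Chn2 (0.23), Lmo3, Scn3a (0.15), Nkd2 (0.14) and Evx2 (0.14). The lowest there were Cldn4 (-0.30), Atp2c2 (-0.28), Aox4 (-0.23), P2rx2 (-0.20) and Trh (-0.19), so only Cldn4 was among the lowest at both depths. In counts this sparse these ratios are weak and are given as a description of the libraries.

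At E16.5 most promoters of tenogenic genes had a ratio below 0 between nuclei with and without a Hoxa13 fragment. Most of those of dermal fibrogenic genes had one above 0, but so did most promoter regions. At the library's own depth all 8 tenogenic genes with a value had a ratio below 0, with the interval below 0 for 2 (2.93% of promoter regions), and 8 of 10 dermal fibrogenic genes had one above 0, with the interval above 0 for 5 (9.31%). At 1074 fragments 6 of 8 tenogenic genes were below 0, with the interval below 0 for 1 (1.62%), and 9 of 10 dermal fibrogenic genes above 0, with the interval above 0 for 3 (8.22%). Of E16.5 promoter regions on chromosomes other than 6, 8133 were higher and 5095 lower at the library's own depth, and 7376 and 4087 at 1074 fragments. At E14.5 6 of 8 tenogenic genes were below 0 at the library's own depth and 7 at 1074 fragments. Of the 10 dermal fibrogenic genes 8 and 6 were then above 0. Scx, a transcription factor of tendon progenitors, had -0.17 (-0.23 to -0.10) at the library's own depth and -0.34 (-0.49 to -0.19) at 1074 fragments. Dpt, a matrix gene of the fibrogenic list, had -0.10 (-0.22 to 0.01) and -0.52 (-0.82 to -0.24). Of the 7 genes of that list with a value, 3 were above 0 and 4 below at the library's own depth, and 1 and 6 at 1074 fragments. The interval lay below 0 for 1 of them at each depth (2.93% and 1.62%). At E14.5 Scx had -0.01 (-0.11 to 0.09) and Dpt -0.11 (-0.49 to 0.25) at the library's own depth. For a second view, nuclei were divided by the summed fragments at promoters of a list at each library's own depth, and since fragments come in whole numbers the upper range was larger than the share of 10% aimed at. It is a range and not a cell type, and held 1165 to 1806 of the 10537 E16.5 nuclei, with 565 to 1087 nuclei at its lowest count and 1118 to 2202 at 1 fragment less. Hoxa13 had a fragment in 16.5% (14.7 to 18.3) of E16.5 nuclei in the upper range of the dermal fibrogenic list and 13.3% (12.6 to 14.03) of the rest, and in 8.61% (7.77 to 9.51) and 7.46% (6.97 to 7.97) at E14.5, where the intervals overlapped. For the tenogenic list the E16.5 shares were 11.7% (10.3 to 13.3) and 14.2% (from 13.5). The chondrogenic list gave 14.4% and 13.7% and the fibrogenic list 12.5% and 13.98% at E16.5, with overlapping intervals. For Hoxa9 to Hoxa11 the shares at E16.5 lay between 65.9% and 70.2% in the upper range of the 4 lists and between 67.3% and 67.9% outside. At 1074 fragments Hoxa13 had a fragment in 2.73% (2.18 to 3.36) of E16.5 nuclei in the tenogenic range and 2.48% (2.20 to 2.80) of the rest. For the dermal fibrogenic list these shares were 2.79% (2.31 to 3.33) and 2.43% (2.13 to 2.76). Both pairs of intervals overlapped, and the tenogenic direction turned. At 1074 fragments, however, the upper range took in every nucleus with at least 1 fragment, 3081 for the tenogenic and 4200 for the dermal fibrogenic list. At the library's own depth it began at 3 and 4 fragments, so depth and the make-up of the range changed together.

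Total cut sites were 87048167, 204289151 and 413425059, with medians of 6004, 8575 and 26694 per nucleus. The libraries shared 151 to 401 cell barcodes in pairs, at most 2.85% of the smaller library. None of the 5 blood genes examined had a promoter region with a peak at every stage, and of the other cell types that a sort could hold 3 of 5 endothelial genes (summed to 45.1, 67.8 and 53.2 CPM), 2 of 5 muscle genes (29.0, 15.6 and 20.3), 3 of 5 epithelial genes (31.3, 38.6 and 31.7) and 4 of 5 Schwann cell genes (95.5, 101 and 105) had one. Pecam1, Myf5 and Krt14 were among those without. The mesenchymal lists summed to 361, 361 and 294 CPM for 9 of 11 chondrogenic genes, 257, 260 and 241 for 8 of 9 tenogenic, 115, 131 and 195 for 7 of 9 fibrogenic and 363, 436 and 368 for 10 of 10 dermal fibrogenic genes. The endothelial, epithelial, tenogenic and dermal fibrogenic sums were highest at E14.5, as were both HoxA intervals, and their part in the stage ratios was not tested. The CD31 sort removes endothelial cells, and the 3 genes of that list with a value did not move alike. In nuclei without a Hoxa13 fragment, at each library's own depth, Kdr had 30.1, 39.1 and 25.8 fragments per 1000000 and Tek 10.7, 25.5 and 21.1, both highest at E14.5, while Cdh5 had 4.33, 1.55 and 5.79 and was lowest there.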

How the data were processed

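Single-nucleus ATAC-seq libraries of forelimb MPs at 3 stages (1 each) were read as deposited. Per the submitters' processing notes and the methods, the authors made the files with Cell Ranger ATAC 1.1.0 on mm10, while the deposited file headers name version 1.0.1 for E12.5 and E14.5 and 1.2.0 for E16.5. The deposited matrices hold, for each nucleus and peak, raw counts of the transposase cuts, from peaks that the authors called per library. Even numbers made up 94.1%, 89.5% and 92.5% of entries, so a fragment was taken as 2 cut sites, rounded up. Overlapping peaks of the 3 libraries (at least 1 bp) were merged into regions, 84660 of which had a peak in every library. A promoter region held 1 or more bases between 1000 bp upstream and 100 bp downstream of a GENCODE start site. Levels were CPM in shared autosomal regions, so whatever moved promoters as a whole moves these values too. A region sum counts only called bases, which differed between libraries.

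Intervals are exact 95% Poisson or binomial (Clopper-Pearson) ones and cover counting error only. PCR copies and biological spread are not in them, nuclei are not replicates, and no test was made. Nuclei were thinned to 1074 fragments in shared regions (25th percentile of the E12.5 library). Nuclei were split at that depth but all their fragments were counted, because thinned counts left no E12.5 promoter with 50 fragments in both sets; this, and the split at each library's own depth, were chosen after seeing the data. No doublet caller was run, and the deepest 5% of nuclei were left out as an alternative. The other alternatives were median-of-ratios scaling, levels per kb, binarised counts, another random seed and 537 fragments. Named genes were the 4 members, genes in the window, the extremes of the 27 patterning genes and of the promoters most and least like Hoxa9 to Hoxa11; Evx2, Rarb, Meis1, Msx1, Msx2, Scx, Dpt, Cdh5, Kdr and Tek were chosen after their values were seen. The same ranking for Hoxa13 is not reported here, since in the 112 E12.5 nuclei with a Hoxa13 fragment the minimum of 50 fragments favours regions that are high there. The members and lists were chosen with earlier results of these data known. Thinning and ratios were tested on simulated data. Python 3.11.15, numpy 2.4.6, scipy 1.17.1, pandas 2.3.3 and matplotlib 3.10.9 were used.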

Additional observations from a re-analysis of the deposited data

How the results depend on the processing

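The stage ratios of the Hoxa9 to Hoxa11 interval, the Hoxa13 interval and the window kept their direction into and out of E14.5 under all 24 alternatives run, while 19 of these moved the value beyond its counting interval. For Hoxa9 to Hoxa11 the step into E14.5 was 0.33 with median-of-ratios scaling, 0.46 per kb, 1.16 with binarised counts and 0.30 without the deepest nuclei, and the step out of it -0.50, -0.59 and -0.77 under the first 3 of these. For Hoxa13 the first step was 0.74 with median-of-ratios scaling, 1.21 per kb and 0.79 without the deepest nuclei, and the second -0.47 and -1.13 under the first 2. With binarised counts the steps of Hoxa13 were 0.62 and -0.33. These cannot be compared with those of Hoxa9 to Hoxa11, because the number of peaks called changed differently in the intervals. For the window, at 0.11 and -0.24, the first step was 0.27, 0.55, 0.60 and 0.26 under the 4 alternatives in that order, and the second -0.37, -0.64 and -0.41 under the first 3. Median-of-ratios scaling moved the median of all promoter regions from 0.25 to 0.41 and from -0.28 to -0.42. From E12.5 to E16.5 the direction turned with binarised counts for Hoxa9 to Hoxa11 (0.38) and the window (0.18), and without the deepest nuclei for the window (0.020), where Hoxa9 to Hoxa11 was at -0.06 in place of -0.18, and Hoxa13 had 0.28 with binarised counts and 0.48 without the deepest nuclei, against 0.25. Binarised counts add 1 per peak and nucleus, and the 7 E14.5 peaks stood against 1 at E12.5.

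At 537 fragments the shares of nuclei were 9.25%, 12.9% and 10.7% for Hoxa9 to Hoxa11 and 0.935%, 1.61% and 1.35% for Hoxa13, in the same order as at 1074, and with another seed the E16.5 share of Hoxa9 to Hoxa11 was 18.9%. The Hoxd13 ratio at E12.5 turned from -0.20 to 0.71 with 537 fragments, 0.03 with another seed and 0.20 without the deepest nuclei. At E16.5 it went from 0.35 to 0.15, 0.22 and 0.28 under these, and it was -0.023 with the library's own depth, the cause of which was not tested; at E14.5 it lay between 0.41 and 0.53 under the 4 alternatives. No paired analysis was possible because each stage was 1 library, and for the same reason no replicate could be left out.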
